A study of Mus musculus with 4 samples.

Results

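The Dlk1-Meg3 imprinted domain is a chromosome 12 gene cluster represented here by 6 genes: Dlk1, Meg3, Rtl1, Rian, Mirg and Dio3. Its members were chosen by name and its extent by position, from 100 kb before Dlk1 to 50 kb after Dio3, chr12:109352485-110331097 in the build mm10, a span of 978.6 kb. Every called peak that touched this span was taken, which gave 7 of 21600 H3K4me3 peaks, 29 of 51737 CTCF peaks and 40 of 75897 RAD21 peaks on the autosomes and X. The genes were 6 of 34328 protein-coding and lncRNA genes annotated by RefSeq on GRCm38.p6, which is the same assembly as mm10. ChIP-exo, in which an exonuclease trims immunoprecipitated DNA close to the crosslinked protein, had been run on Bruce-4 mouse embryonic stem cells of C57BL/6J genotype. The cells grew without treatment on gelatinized plates in serum/2i/LIF, and 10000000 were fixed with 1% formaldehyde for 10 min per library. There was 1 library for H3K4me3, 2 for CTCF and 1 for RAD21, and all libraries shared line, genotype and medium. The line is a single cell line, and a C57BL/6J genotype offers no variants by which the maternal and paternal copies could be separated, so every peak below is the sum of both copies.

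In imprinted domains a gene is expressed from the copy inherited from one parent. Dlk1, Rtl1 and Dio3 are known as genes expressed from the paternal copy, while the noncoding RNAs Meg3, Rian and Mirg, which carry many miRNAs and snoRNAs, are known to be made from the maternal copy. The switch is a differentially methylated control region between Dlk1 and Meg3, and silencing of Meg3 is a known hazard of stem cell culture. H3K4me3 marks active and poised promoters. CTCF binds DNA and halts the cohesin ring, of which RAD21 is a subunit, and at other imprinted domains, such as Igf2-H19, CTCF is known to bind the unmethylated copy.

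The lists gave a chromosome, a start and an end for each peak and no height, so depth and occupancy were unknown and length in bp was the only size that could be compared. For CTCF a single union list was analysed, so no antibody had a replicate peak list and no test between conditions was possible. Intervals given below cover counting error only. Where no peak is listed, binding below the authors' threshold cannot be told from none. By the marker lists, H3K4me3 lay within 1 kb of an end of 11 of 12 stem cell markers, Nanog (2792 bp) and Pou5f1 (2019 bp) among them, with Esrrb the exception, and of 3 of 10 fibroblast markers, namely Fn1, Twist1 and Thy1, against 57.2% of all protein-coding genes. Col1a1, Col1a2 and Col3a1, defining collagens of fibroblasts, had none at an end. Anywhere in the gene or within 1 kb, H3K4me3 was at 12 of 12 stem cell markers, Esrrb included, and 4 of 10 fibroblast markers. The share of protein-coding genes by this rule was 64.9%. The part of other cell types in the results was not tested.

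The promoter sequences of 4 genes are shown because their H3K4me3 differed, and they bear on the peaks described next. Each is 300 bases of RefSeq GRCm38.p6, 250 before the annotated start and 50 from it onward, printed 5′ to 3′ in the direction of the gene. Capitals mark matches to 4 motifs searched on both strands: the core of the CTCF motif, TGCCGC (core of the motif of ZFP57, a zinc finger protein that protects imprints), GGGCGG (the SP1 box) and TATAAA (the TATA box). Meg3 is at chr12:109540746-109541045 on the plus strand, Dlk1 at chr12:109452573-109452872 on the plus strand, Dio3 at chr12:110278980-110279279 on the plus strand and Dio3os, the antisense noncoding neighbour of Dio3, at chr12:110278019-110278318 on the minus strand.
Meg3: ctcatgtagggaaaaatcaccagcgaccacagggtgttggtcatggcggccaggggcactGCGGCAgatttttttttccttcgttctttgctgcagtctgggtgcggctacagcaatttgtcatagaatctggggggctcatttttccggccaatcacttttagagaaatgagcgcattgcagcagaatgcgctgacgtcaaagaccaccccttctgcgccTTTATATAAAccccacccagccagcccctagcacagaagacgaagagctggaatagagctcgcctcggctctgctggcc
Dlk1: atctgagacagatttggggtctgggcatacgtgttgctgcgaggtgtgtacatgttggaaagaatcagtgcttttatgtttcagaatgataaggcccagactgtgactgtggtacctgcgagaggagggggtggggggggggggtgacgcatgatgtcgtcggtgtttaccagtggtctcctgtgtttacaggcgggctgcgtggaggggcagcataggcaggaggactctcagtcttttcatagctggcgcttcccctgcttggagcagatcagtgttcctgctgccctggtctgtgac
Dio3: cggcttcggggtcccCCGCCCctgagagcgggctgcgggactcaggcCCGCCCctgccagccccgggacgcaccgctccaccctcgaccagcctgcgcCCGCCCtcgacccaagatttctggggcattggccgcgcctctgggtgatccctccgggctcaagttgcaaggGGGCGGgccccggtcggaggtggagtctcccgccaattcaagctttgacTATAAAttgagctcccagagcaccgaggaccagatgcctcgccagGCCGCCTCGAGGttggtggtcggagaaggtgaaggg
Dio3os: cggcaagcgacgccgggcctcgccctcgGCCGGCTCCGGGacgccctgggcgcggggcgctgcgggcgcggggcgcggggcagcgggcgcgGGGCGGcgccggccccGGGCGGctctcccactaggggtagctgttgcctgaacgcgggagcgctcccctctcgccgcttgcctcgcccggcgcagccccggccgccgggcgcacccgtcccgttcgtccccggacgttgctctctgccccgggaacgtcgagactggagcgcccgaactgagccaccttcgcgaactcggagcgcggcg

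The 4 windows differed in composition. The Dio3os window held 53 CpG dinucleotides, more than 99.5% of 32619 promoter windows held. The Dio3 window held 25 CpG (more than 81.4% of windows), Meg3 13 (more than 61.8%) and Dlk1 9 (more than 53.9%). The median was 7 in all windows and 23 in the 11793 windows that an H3K4me3 peak touched. In the 20826 windows without H3K4me3 it was 4. Meg3 held TATAAA from position -25, counted from the start, overlapped by a match on the other strand from position -29, and Dio3 held it from position -31. TATAAA is present in 13.7% of all windows. Meg3 also had a TGCCGC match on the minus strand, from position -190, a motif in 11.7% of windows. GGGCGG occurred 4 times in Dio3 and 2 times in Dio3os and is in 35.9% of windows. The CTCF core matched once in Dio3 and once in Dio3os and is in 8.67% of windows. No CTCF or RAD21 peak touched any of the 4 windows, and H3K4me3 touched those of Meg3, Dio3 and Dio3os. Over all windows H3K4me3 touched 36.2%, CTCF 7.72% and RAD21 15.0%. None of these motifs matched in the Dlk1 window. Such matches describe letters and do not show a bound site.

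Dlk1 encodes a transmembrane ligand related to Notch ligands. Its H3K4me3 lay inside the gene and not at its start. The gene spans chr12:109452485-109463336, and its only H3K4me3 peak, 654 bp at chr12:109459631-109460284, began 6808 bp downstream of the annotated start and lay 3052 bp short of the 3′ end. A peak in the body with none within 1 kb of an end was found at 7.7% of 21631 protein-coding genes. No CTCF or RAD21 peak was called in Dlk1. The nearest were a 107 bp CTCF peak at chr12:109446183-109446289 and a 109 bp RAD21 peak at chr12:109446185-109446293, which shared 105 bp and lay 6196 and 6192 bp before the outer end of the gene.

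Upstream of Dlk1 the 100 kb flank held 5 CTCF and 6 RAD21 peaks and no H3K4me3. Each of the 5 CTCF peaks overlapped RAD21. They ended 58402, 51040, 16019, 14417 and 6196 bp before the outer end of Dlk1, and the longest was 202 bp, at chr12:109437867-109438068. The remaining RAD21 peak, 71 bp at chr12:109423418-109423488, had the shortest length in its list. No gene of the annotation lies in this flank.

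Between Dlk1 and Meg3, the 77.66 kb that include the imprinting control region, 1 site was called. It consisted of a 99 bp CTCF peak at chr12:109500193-109500291 and an 88 bp RAD21 peak at chr12:109500270-109500357, which shared only 22 bp. From there to Meg3, 40635 bp held no peak of any list. On chromosome 12, 17.7% of the stretches between neighbouring peaks of the 3 lists were that long or longer. The stretch also holds all 5 annotated starts of Gm34081, an lncRNA gene on the opposite strand to Meg3. Its outermost start lay 844 bp from an H3K4me3 peak, that of Meg3, and its other starts at least 1229 bp from it.

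Meg3, an lncRNA with growth-restraining activity, had the longest H3K4me3 peak of the domain. The peak measured 1069 bp, longer than 79.3% of its list, and ran from 3 bp before the first annotated start into the gene (chr12:109540993-109542061). It covered 53 bases of the promoter window printed above, all of them its last. Past its end, 20 bp on, began a RAD21 peak of 358 bp (chr12:109542082-109542439), longer than 92.3% of RAD21 peaks, with a 52 bp CTCF peak inside it (chr12:109542156-109542207). A second pair began 756 bp past the end of that CTCF peak, with a RAD21 peak of 151 bp (chr12:109542964-109543114) that contained a CTCF peak of 105 bp (chr12:109542981-109543085). H3K4me3, RAD21 and CTCF thus lay in that order within 2.5 kb of the start, without overlap between H3K4me3 and either protein. Of 14252 annotated starts with H3K4me3 within 1 kb, 40.8% had CTCF, 58.7% RAD21 and 33.8% both within 2.5 kb. The second annotated Meg3 start had no H3K4me3 within 1 kb (the distance was 3337 bp). A RAD21 peak without CTCF, 111 bp at chr12:109566728-109566838, lay near the 3′ end, where Meg3 and Rtl1 overlap in the annotation.

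Dio3 encodes the deiodinase that inactivates thyroid hormone, and its promoter region carried H3K4me3 without either protein nearby. A 550 bp peak (chr12:110278507-110279056) ended 174 bp before the start of Dio3 and covered 77 bases of its promoter window. A 397 bp peak (chr12:110277747-110278143) lay over the start of Dio3os and covered 125 bases of that window. The gene body of Dio3 had no peak of any list. The nearest CTCF peak was 33.5 kb from the start, and the nearest RAD21 peak also 33.5 kb, in a pair at chr12:110245634-110245693 and chr12:110245622-110245744. Of the starts with H3K4me3 within 1 kb, 8.78% were as far from CTCF or farther, and 2.4% as far from RAD21. Their medians were 4.38 kb to CTCF and 1.13 kb to RAD21. In the 50 kb after Dio3 there was 1 RAD21 peak, at the shortest length of 71 bp, and no CTCF peak.

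**Figure D1:**
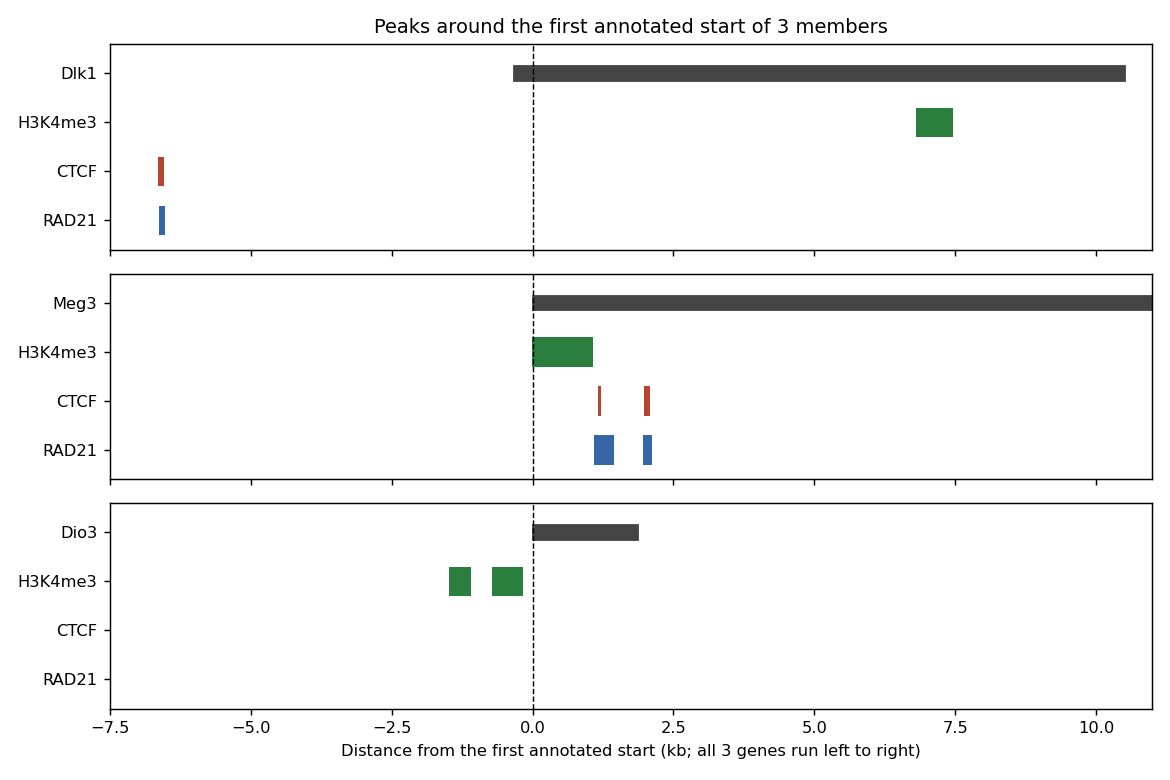
Peaks as called, to scale, around the first annotated start (dashed line) of Dlk1, Meg3 and Dio3, with distance in kb on the horizontal axis and the gene in dark grey above the 3 lists. H3K4me3 lies inside the gene at Dlk1, over the start and into the gene at Meg3, and before the start at Dio3. Within the plotted range CTCF and RAD21 lie downstream of the start at Meg3 and upstream of it at Dlk1, and none is seen at Dio3.

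Rtl1, Rian and Mirg had no H3K4me3 in the gene or within 1 kb of it. Rtl1, a retrotransposon-derived gene needed for placental vessels, had its nearest H3K4me3 peak 22839 bp away, that of Meg3. Within Rtl1 beyond Meg3 there was 1 site, a RAD21 peak of 109 bp (chr12:109595078-109595186) around a CTCF peak of 43 bp (chr12:109595097-109595139). Rian, which hosts snoRNAs of the C/D box type, carried the longest RAD21 peak of the domain, 628 bp at chr12:109612486-109613113. Only 0.412% of all RAD21 peaks were longer. Within it lay a 165 bp CTCF peak (chr12:109612751-109612915). Rian had also a 93 bp RAD21 peak without CTCF (chr12:109609193-109609285) and a 39 bp CTCF peak without RAD21 (chr12:109644822-109644860), which is among the shortest CTCF calls. The Rian promoter window held a match to the CTCF core just past the start, but the nearest CTCF peak was 8806 bp from that start.

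Mirg, the host of the last miRNAs of the cluster, had no peak in its body and a pair just behind it. The CTCF peak (268 bp, chr12:109750101-109750368), longest of the domain and longer than 91.2% of its list, began 643 bp past the 3′ end, and the 160 bp RAD21 peak (chr12:109750098-109750257) shared 157 bp with it. Both proteins within 1 kb of the 3′ end were found at 6.27% of 9520 lncRNA genes with a known strand.

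By the count at gene ends, with a window of 1 kb, H3K4me3 was at 2 of the 6 members, Meg3 and Dio3. In the whole annotation H3K4me3 was at 57.2% of protein-coding and 19.9% of lncRNA genes. CTCF was at 1 of 6, Mirg, against 26.5% of protein-coding and 17.5% of lncRNA genes. RAD21 was at the same member, against 38.6% and 25.3%. No test was made of these counts over 6 genes. Anywhere in the gene or within 1 kb, H3K4me3 was at 3 of 6, against 64.9% of protein-coding and 24.4% of lncRNA genes. By the same rule CTCF was at 4, against 56.3% and 33.7%, and RAD21 at 4, against 65.8% and 46.2%. Within 1 kb of an annotated start, known for 5 members, H3K4me3 was at 2 and CTCF and RAD21 at 0, against 43.7%, 17.3% and 27.4% of all annotated starts. The CTCF and RAD21 counts depended on the window: no member had either within 500 bp, and with 2.5 kb CTCF was at 2 and RAD21 at 3.

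Most small RNA genes of the domain lay in 1 stretch without a CTCF peak. The annotation lists 61 miRNA and 19 snoRNA genes in the span. The longest stretch without CTCF, 105240 bp from Rian to behind Mirg (chr12:109644861-109750100), contained 40 of the miRNA and 16 of the snoRNA genes. Of the stretches between CTCF peaks on chromosome 12, 11.9% were at least as long. The stretch was picked as the longest of the domain, so this percentage does not measure sparseness. Its edge in Rian was a 39 bp CTCF peak, among the shortest calls, and without such calls the longest stretch was 137185 bp. The only RAD21 peak wholly in the 105240 bp was a 71 bp call (chr12:109666918-109666988). The 83109 bp after that call, free of all 3 lists, held the same number of miRNA genes, 40, and 8 snoRNA genes. Of the 61 miRNA genes 1 overlapped H3K4me3 and 0 overlapped CTCF or RAD21, against 7.9%, 0.896% and 1.3% of 1228 miRNA genes on all chromosomes used. Of the 19 snoRNA genes 0 overlapped any list, against 4.25% for H3K4me3, 6.42% for CTCF and 7.46% for RAD21 among 1340 snoRNA genes. Genes this short seldom overlapped a peak anywhere, so nothing about the domain is read from these counts.

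The miRNA gene under H3K4me3 was Mir1247. Its hairpin, chr12:110278048-110278129 on the minus strand, lay wholly inside the 397 bp H3K4me3 peak at the start of Dio3os and within the Dio3os window printed above. The next nearest to any peak were Mir432 and Mir3071, 48 and 132 bp from the RAD21 peak of Rtl1. Their mature sequences are shown for these positions, in RefSeq GRCm38.p6, with the seed (bases 2 to 8) in capitals.
miR-1247-5p: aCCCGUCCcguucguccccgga
miR-1247-3p: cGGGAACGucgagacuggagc
miR-432: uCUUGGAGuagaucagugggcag
miR-3071-5p: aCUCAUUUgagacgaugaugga
miR-3071-3p: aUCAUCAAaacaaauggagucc

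Within the stretch without CTCF, 7 groups of mature miRNAs shared a seed, and the 3 groups that come first along the chromosome are shown to represent the cluster. In each group the letters after the seed differ or end earlier while the seed is the same.
miR-379-3p: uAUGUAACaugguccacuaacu
miR-411-3p: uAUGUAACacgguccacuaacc
miR-379-5p: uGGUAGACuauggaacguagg
miR-1193-5p: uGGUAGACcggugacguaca
miR-299a-3p: uAUGUGGGacgguaaaccgcuu
miR-299b-3p: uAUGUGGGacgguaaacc

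The interval between Mirg and Dio3 holds no member and makes up 529.8 of the 978.6 kb of the domain. It held 18 of the 29 CTCF and 25 of the 40 RAD21 peaks, and 5 of the 7 H3K4me3 peaks counting those before Dio3. The larger part of the peaks thus lay in the larger part of the span. They were not evenly placed. From Gm34554 to Gm34719, lncRNA genes of unstated role, 166.1 kb or 17.0% of the domain held 13 CTCF and 15 RAD21 peaks, 44.8% and 37.5% of the totals, or 7.83 and 9.03 per 100 kb. This stretch was picked after the peaks had been seen. The RAD21 peaks over 300 bp outside Meg3 and Rian were here: 540 bp inside Gm34667 (chr12:109993449-109993988), with only 1.19% of the list longer, 457 bp inside Gm34719 (chr12:110063001-110063457) and 336 bp inside Gm40574 (chr12:110031437-110031772). Each overlapped a CTCF peak, of 137, 180 and 257 bp.

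H3K4me3 in this interval lay at 3 places away from Dio3. A 459 bp peak (chr12:109921956-109922414) began 55 bp past the start of Gm34554. A 763 bp peak (chr12:109948857-109949619), 1379 bp behind the 3′ end of Gm34554, was the only H3K4me3 peak of the domain that overlapped CTCF or RAD21. It overlapped both, a RAD21 peak of 212 bp at its edge and a CTCF peak of 60 bp, but these did not overlap each other. Over all chromosomes 17.1% of H3K4me3 peaks overlapped CTCF, 31.5% RAD21 and 13.0% both. A 322 bp peak (chr12:109813433-109813754) overlapped no gene and had the pseudogene Gm9661 13215 bp and Mirg 63975 bp away.

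Toward Dio3 the peaks thinned out. RAD21 was absent for 124290 bp (chr12:110121332-110245621), its longest stretch in the domain, and 5.28% of the stretches between RAD21 peaks on chromosome 12 were at least as long. A 56 bp CTCF peak without RAD21 (chr12:110154824-110154879) lay in it, inside 3110009F21Rik. The longest stretch without H3K4me3, 328127 bp, ran from the peak behind Gm34554 to Dio3os. Of the stretches between H3K4me3 peaks on chromosome 12, 8.92% were at least as long. The RAD21 and H3K4me3 stretches were picked as the longest of the domain, so these percentages do not measure sparseness.

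CTCF peaks of the domain mostly coincided with RAD21. Of the 29, 26 shared 1 or more bp with RAD21 (89.7%, Wilson 95% interval 73.61 to 96.42%), against 81.9% of the whole CTCF list, a share inside that interval. The 3 without RAD21 were those in Rian, behind Gm34554 and in 3110009F21Rik, 39, 60 and 56 bp long, while the 26 with RAD21 ran from 39 to 268 bp with a median of 93.5 bp. Of the 40 RAD21 peaks 26 overlapped CTCF (65.0%, Wilson 95% interval 49.51 to 77.87%), against 55.9% of the whole list, again inside the interval. Each of the 26 pairs joined 1 CTCF and 1 RAD21 peak. RAD21 was the longer in 24 of them and contained the CTCF peak entirely in 17. Midpoints lay 0 to 115.5 bp apart with a median of 29.5 bp, against 33 bp over the 42522 pairs of the whole series.

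RAD21 peaks differed in length by whether CTCF was present. Those with CTCF ran from 88 to 628 bp with a median of 155.5 bp, and the 14 without CTCF from 71 to 212 bp with a median of 71 bp. The ranges overlapped. The corresponding medians of the whole list were 183 and 95 bp. Of the 14, 8 (57.1%) had the shortest length in the list, 71 bp, against 33.0% of all RAD21 peaks without CTCF. None of the 26 with CTCF did. The domain was thus shorter than the list in both classes, which was not tested. Without the shortest calls of both lists, 25 of 32 RAD21 peaks overlapped CTCF (78.1%), against 60.5% in the whole series under the same cut.

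**Figure D2:**
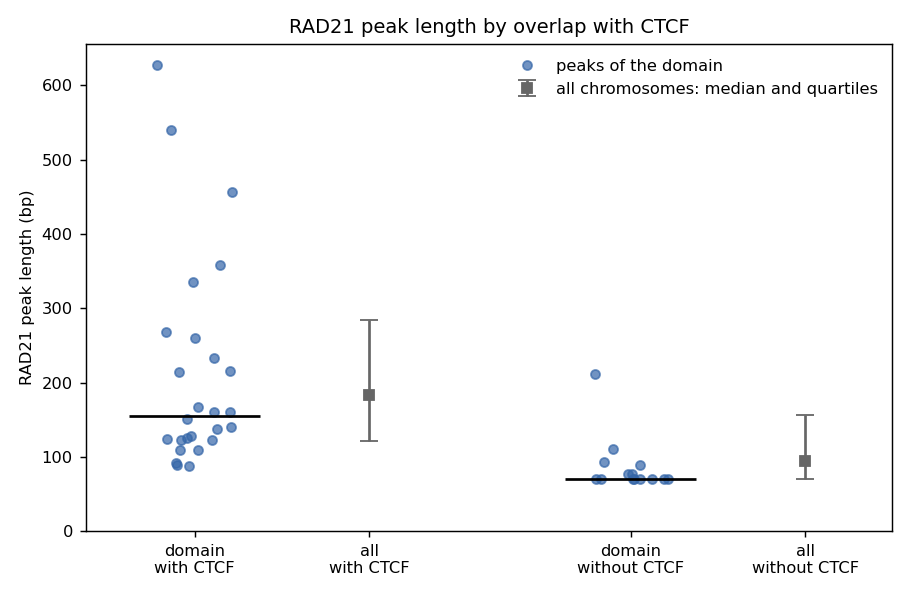
Length in bp of RAD21 peaks that overlap CTCF (left) and that do not (right). Points are the 26 and 14 peaks of the domain with their median as a line, and grey squares with bars are the median and quartiles of the whole list. Points with CTCF reach 628 bp, those without it 212 bp, and 8 of those without it lie at 71 bp.

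In density the domain was close to the rest of its chromosome for H3K4me3, and its counts of CTCF and RAD21 per length were higher. H3K4me3 peaks numbered 0.715 per 100 kb in the domain (exact Poisson 95% interval 0.288 to 1.47), against 0.711 on the rest of chromosome 12. CTCF peaks numbered 2.96 per 100 kb (1.99 to 4.26), against 1.73, and RAD21 peaks 4.09 (2.92 to 5.57), against 2.74. In both cases the rest of the chromosome lay below the interval, which assumes independent peaks, while the densities over all chromosomes used, 2.019 for CTCF and 2.962 for RAD21, lay inside it. Peak density varies widely along the chromosome. Over 118 consecutive windows of the same length CTCF counts ran from 0 to 67 with a median of 13.5, and 21 windows exceeded the 29 of the domain. RAD21 counts ran from 3 to 75 with a median of 23, and 27 windows exceeded its 40. The domain therefore lay within the spread of its chromosome.

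Other imprinted domains, taken with the same flanks, had densities on either side of it. The Igf2-H19 and Kcnq1ot1 domain on chromosome 7 held 15 H3K4me3, 47 CTCF and 51 RAD21 peaks in 1077.6 kb, or 4.36 CTCF per 100 kb (3.205 to 5.8), whose interval overlapped that of the Dlk1-Meg3 domain. The Snrpn domain held 10, 19 and 27 peaks in 3341.4 kb, or 0.569 CTCF per 100 kb (0.342 to 0.888), below it without overlap of the intervals.

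**Figure D3:**
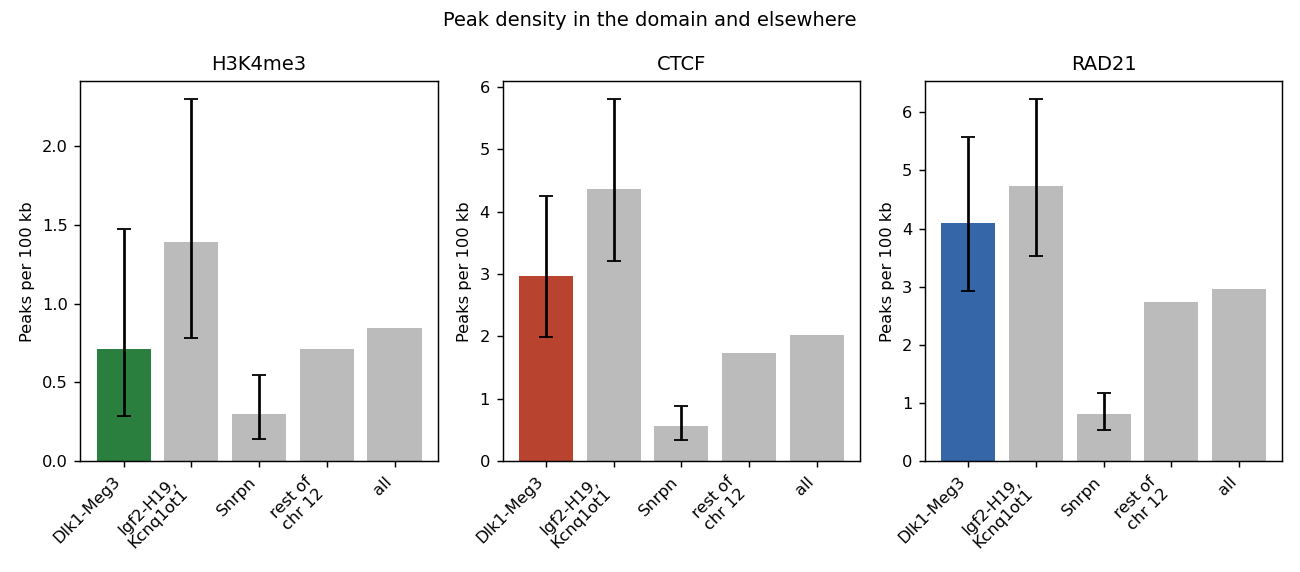
Peaks per 100 kb in the Dlk1-Meg3 domain (coloured), in 2 other imprinted domains, on the rest of chromosome 12 and on all chromosomes used (grey), 1 panel per list with its own scale from 0. Bars on the 3 domains are exact Poisson 95% intervals. For CTCF the Dlk1-Meg3 domain, at 2.96, lies between the Igf2-H19 and Kcnq1ot1 domain, at 4.36, and the Snrpn domain, at 0.569.

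Genes whose proteins act on imprinting marks were mostly marked in these cells. Of 20 listed, 15 had H3K4me3 at an end (57.2% of protein-coding genes did), led by Jarid2 (2728 bp), a cofactor of Polycomb complex PRC2, and Eed (1951 bp), a core subunit of it. Among the unmarked were Aff3, which encodes a protein known to bind the control region between Dlk1 and Meg3, and the maintenance methyltransferase gene Dnmt1. All 20 had an H3K4me3 peak in the gene or within 1 kb, as did 64.9% of protein-coding genes. At an end, CTCF was at 4 and RAD21 at 6 of the 20, against 26.5% and 38.6% of protein-coding genes. Of 29 other imprinted coding genes 22 had H3K4me3 at an end (75.9%), with 1584 bp at Cd81 and 1314 bp at Slc38a4, and none at Cdkn1c or Dcn. CTCF was at 12 (41.4%, against 26.5%) and RAD21 at 14 (48.3%, against 38.6%). Of 6 other imprinted noncoding genes 3 had H3K4me3, Kcnq1ot1 (2007 bp), Airn (1224 bp) and Peg13 (1099 bp), and H19 and Nctc1 did not, against 19.9% of all lncRNA genes. Meg3, at 1069 bp, was thus shorter than each of these 3. No test was made on these lists.

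The genes whose peaks were most like those of a member were found by the bases covered by each list in the gene and 1 kb around it, as the distance of log2 values over the 3 lists. Meg3, with 1069 bp of H3K4me3, 157 bp of CTCF and 620 bp of RAD21, was closest among 12696 lncRNA genes to Gm33318 (1005, 158 and 615 bp), LOC117997403 and Gm40564, at distances of 0.0902, 0.126 and 0.249. Rian was closest to 9430078K24Rik, Gm43837 and C230014O12Rik, and Mirg to A930014E01Rik, Gm37294 and Gm42161. Rtl1, with 43 bp of CTCF and 220 bp of RAD21, was closest among 21630 protein-coding genes to Glyatl3, Antxrl and Havcr1. Gene length did not enter the measure. Dlk1 and Dio3 had peaks of 1 list only and were not compared.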

How the data were processed

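Peak lists of ChIP-exo in Bruce-4 cells were used as the authors deposited them. Per the file headers, which are absent, and the values, each list holds only positions and lengths (chromosome, start, end), a unit other than a score or count. Per the submitters' processing notes the build was mm10 and the tools, without roles, were MACS2, bedtools 2.30.0, Picard 2.27.4 and Bowtie2 2.4.5. The peak threshold was not given in the sources used here, nor was a control library. The CTCF list is called a union and is recorded under the second CTCF library. Depth is unknown.

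Intervals were handled in Python 3.11.15 with pandas 2.3.3, numpy 2.4.6 and scipy 1.17.1, figures drawn with matplotlib 3.10.9, and the overlap checked against bedtools 2.31.1. Starts were made 1-based. The 19 autosomes and X were kept. An overlap was at least 1 bp and a gene end window 1 kb. Shortest calls were lengths up to 39 bp for CTCF and 71 bp for RAD21, and for H3K4me3 the least length of its list. Gene ends came from RefSeq GRCm38.p6, and starts and strand from its promoter windows, which covered 5 of the 6 members (not Rtl1). Exons and introns were not used here. Sequence under peaks outside promoter windows was not used here. Of 61 miRNA genes 58 matched a sequence. Of the imprinted genes listed, Nespas was not matched. The interval code was tested on simulated peaks.

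No test was made, since each antibody had 1 list. Named genes were the 6 members, other genes of the span at a described peak, the 3 most alike genes per member, and per list the 2 with the longest H3K4me3 peak and the first 2 unmarked by alphabet. Markers and Peg13 were named after their values were seen. Members, lists and alternatives were chosen with earlier results of these data known.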

Additional observations from a re-analysis of the deposited data

How the results depend on the processing

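Alternatives varied the peaks kept, the span, the overlap and the gene window for 12 results. Of 60 values, 43 stayed within their counting interval or within 1.5 times, and 17 moved. Whether a difference from the rest of the series changed direction was not checked for these values. When peaks at or below their list's median length were dropped, densities fell to 0.204 H3K4me3, 1.23 CTCF and 1.64 RAD21 per 100 kb, median lengths became 916, 172.5 and 225 bp, the longest stretch without CTCF became 267663 bp, and H3K4me3 was at 1 member, since this cut removes peaks by construction. Without the shortest calls 78.12% of RAD21 peaks overlapped CTCF. CTCF was at 0 member genes with a 500 bp window and with annotated starts only, at 2 with 2.5 kb and at 4 anywhere in the gene or within 1 kb. For RAD21 the counts under these settings were 0, 0, 3 and 4. The cause was not tested further. The share of CTCF peaks with RAD21 stayed between 86.05 and 93.1% in every alternative run, but the share of the whole list moved. Among peaks above the median length it was 91.7% in the domain (only 11 of 12 peaks) against 71.7% over all chromosomes. Without the shortest calls it was 92.6% (25 of 27) against 87.6%. For RAD21 peaks with CTCF above the median length the shares were 68.8% (11 of 16) and 48.6%. These differences were not tested. No paired analysis was possible because only CTCF has numbered replicates. For CTCF there was 1 union list, and whether it holds both libraries is not stated, so no replicate could be left out either. Peak height and depth were unknown, which limits all statements to where peaks were called.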

Other observations

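Beyond the domain the sides differed in annotated genes. The 150 kb before it, reaching 250 kb from Dlk1, held no protein-coding or lncRNA gene, 1 H3K4me3, 2 CTCF and 4 RAD21 peaks. The 200 kb after it, reaching 250 kb from Dio3, held 3 H3K4me3, 12 CTCF and 15 RAD21 peaks. Ppp2r5c, which encodes a regulatory subunit of the phosphatase PP2A, had H3K4me3 (644 bp) and RAD21 (94 bp) at an annotated end. The lncRNA gene Gm40577 had CTCF (203 bp) and RAD21 (589 bp) at an end and no H3K4me3, and Gm19605 had H3K4me3 alone (1340 bp).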
